A study of Bos taurus with 6 samples.

Results

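The genes of the splicing machinery were followed in bovine preadipocytes that had been transfected with an miRNA mimic. Members were all rows of the expression table whose gene symbol begins with SNRP, SF3A, SF3B, SRSF, PRPF or HNRNP, which gave 65 of the 23475 genes listed. They were 12 SNRP, 3 SF3A, 6 SF3B, 11 SRSF, 13 PRPF and 20 HNRNP genes. The rule reads names only and used no measured value. All 65 members passed the filter on low values.

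In the study, cells isolated from the subcutaneous fat of calves received the bta-miR-484 agomir in 3 libraries and the agomir NC in 3 others, and RNA was collected 48 h after transfection. The agomir is a synthetic mimic that adds to the cell's pool of this miRNA, and its negative control is a molecule of the same type, so both groups had received transfected RNA. No untransfected library was analysed here. The sources do not say if replicates were separate calves or parallel cultures, so the SD over n = 3 may be a technical spread. The labels call the cells adipocytes, and the methods use both that word and preadipocytes, the name of their precursors. Markers of fibroblasts and preadipocytes were abundant, with all 11 listed genes at 55.7 FPKM or more in every library, and COL3A1 was the highest of them. Of the mature adipocyte markers, ADIPOQ was at most 0.197 FPKM in any library, and the 8 markers together summed to between 11.0 and 12.6 FPKM. LPL was the highest of them by the mean over all libraries. PPARG lay above LPL in agomir replicate 1 (3.99 against 3.48 FPKM) and agomir replicate 3 (3.91 against 3.67 FPKM). Endothelial, leukocyte, muscle, epithelial and erythroid markers are given at the end.

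Splicing removes introns from pre-mRNA. It is carried out by the spliceosome, which is built from small nuclear ribonucleoproteins (snRNPs) and many other proteins. SNRP genes encode proteins of the snRNPs, SF3A and SF3B genes encode the parts of the U2 snRNP that hold the branch point, and PRPF genes encode factors of the U4/U6.U5 tri-snRNP and of spliceosome activation. SR proteins (SRSF) and heterogeneous nuclear ribonucleoproteins (HNRNP) bind pre-mRNA and favor or repress the use of splice sites. Most of these genes are expressed in nearly all cell types, and several SRSF and HNRNP genes regulate their own transcripts through alternative exons. The deposited values give 1 level per gene, so neither the isoforms of these genes nor splicing itself were measured here.

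The 65 genes differed little between agomir and control. The values deposited by the authors are FPKM, fragments scaled by transcript length and by the mapped total of each library. Genes whose average over the 6 libraries was 0.5 FPKM or more were tested with limma on log2(FPKM + 0.5), two-sided, with Benjamini-Hochberg adjustment over the 12422 genes tested. None of the 65 members was under an adjusted p of 0.05, where 0.00805% of all genes tested were. The lowest adjusted p among the members was 0.363 in limma, for SRSF9. At an unadjusted p under 0.05, 1 member was higher with the agomir (1.54%, against 6.63% of all genes tested) and 2 were lower (3.08%, against 4.31%). These were SRSF11, SRSF9 and SNRPD3. The agomir libraries lay wholly above the agomir NC libraries in 3 members (4.62%, against 10.9% of all genes tested), and wholly below them in 4 (6.15%, against 6.36%). With 3 libraries against 3, the exact two-sided permutation test cannot go below p = 0.1.

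The log2 fold changes of the members ranged from -0.31 to 0.16, with a median of -0.014, against a median of 0.013 and a range from -1.78 to 1.97 over all genes tested. In 63 of the 65 members the 95% interval of the fold change, taken for each gene by itself, lay within a 1.5-fold change in either direction, against 92.9% of all genes tested. In 53 members it lay within a 1.2-fold change, against 46.0%. The exceptions to the wider bound were HNRNPC and HNRNPU. The members were also more abundant than most genes, with a median of 32.1 FPKM against 8.36 FPKM, and the median SD within groups was 0.071 on the log2 scale against 0.099 over all genes tested. In a bulk sample, fewer cells of a type and less RNA per cell cannot be told apart.

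**Figure D1:**
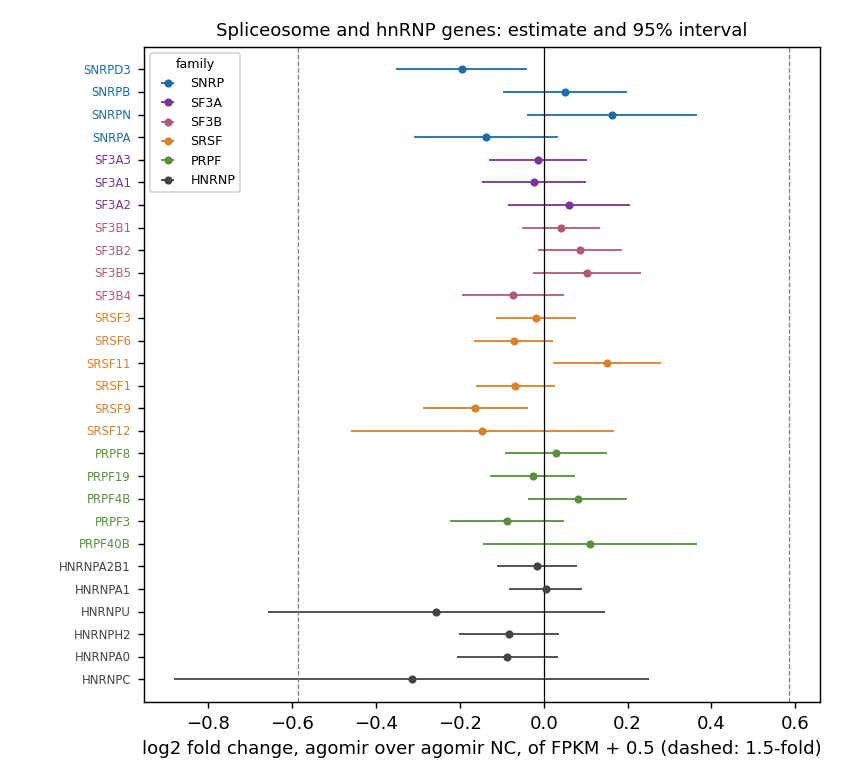
Log2 fold change of agomir over agomir NC, on the log2(FPKM + 0.5) scale, for the genes named by rule with HNRNPC, SRSF1 and SRSF12, each with its 95% interval from limma (bars), colored by family and ordered by level within it. Dashed lines mark a 1.5-fold change, and the intervals of HNRNPC and HNRNPU are those that cross one.

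The SNRP genes include the 7 proteins that form the Sm ring around the snRNA of most spliceosomal snRNPs, namely SNRPB, SNRPD1, SNRPD2, SNRPD3, SNRPE, SNRPF and SNRPG. Each is present once in a ring, yet their mean levels ranged 5.60-fold, from 7.75 FPKM for SNRPF, the lowest of the 7 in all 6 libraries, to 43.4 FPKM for SNRPD3. SNRPD3 was the highest of the 7 in 3 libraries, and SNRPB lay above it in agomir replicates 1 and 3 and agomir NC replicate 1. SNRPD3 was at 41.6, 38.5 and 41.0 FPKM with the agomir, against 41.3, 48.6 and 49.5 FPKM with agomir NC. Agomir NC replicate 1 lay between the agomir values, and agomir NC replicates 2 and 3 lay above all of them. The means were 40.4 ± 1.62 FPKM against 46.5 ± 4.48 FPKM (SD, n = 3 each), and the change on the log2 scale was -0.20 (standard error 0.070, limma adjusted p = 0.376). SNRPD3 no longer passed the unadjusted threshold without the variance trend or when agomir replicate 2, agomir NC replicate 2 or agomir NC replicate 3 was left out, and over the 6 fits with 1 library left out its log2 fold change lay between -0.28 and -0.15.

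SNRPB, whose product occupies the ring position next to SNRPD3, was at 42.1, 38.3 and 45.1 FPKM with the agomir, against 41.5, 38.0 and 41.4 FPKM with agomir NC. Its groups overlapped, with a log2 fold change of 0.052 (95% interval -0.097 to 0.20). SNRPN encodes SmN, a protein nearly identical to the SNRPB product, so reads of both genes could be divided between them in a way the sources do not state. SNRPN was at 24.4, 22.3 and 24.2 FPKM with the agomir, against 21.8, 18.1 and 23.7 FPKM with agomir NC. Agomir NC replicate 3 lay inside the agomir range and the other agomir NC libraries below it, and the log2 fold change of 0.16 (standard error 0.091) was 0.056 when agomir NC replicate 2 was left out. Without agomir NC replicate 3 it was 0.25 and passed the unadjusted threshold, as SNRPN also did with the replicate block.

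SNRPA, the U1 snRNP protein that binds a stem loop of U1 snRNA, was at 10.1, 11.5 and 10.3 FPKM with the agomir, against 12.6, 10.9 and 11.8 FPKM with agomir NC. The groups overlapped by 1 library each, and the log2 fold change was -0.14 (standard error 0.076, limma adjusted p = 0.555). SNRPA passed the unadjusted threshold without agomir replicate 2 (-0.19) or agomir NC replicate 2 (-0.19), and its log2 fold change was -0.089 without agomir NC replicate 1. The remaining SNRP genes had log2 fold changes between -0.093 (SNRPD2) and 0.14 (SNRPE), and none passed the unadjusted threshold with all libraries. SNRPD2 passed it without agomir replicate 1, at -0.17. SNRPE varied most within groups, at 25.4, 17.8 and 22.1 FPKM with the agomir, against 19.2, 17.3 and 22.3 FPKM with agomir NC. Its log2 fold change was 0.027 without agomir replicate 1 and 0.28 without agomir replicate 2, where it passed the unadjusted threshold. Of the 12 SNRP genes, 1 was lower (8.33%, against 4.31% of all genes tested) and 0 were higher (against 6.63%) at the unadjusted threshold, and the family's median log2 fold change was -0.022. The sign of this median depended on single libraries, as it was 0.041 without agomir NC replicate 3 and -0.063 without agomir NC replicate 2. The sums of the 12 genes were 298, 275 and 287 FPKM with the agomir, against 288, 274 and 307 FPKM with agomir NC, so that the groups overlapped.

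The SF3A complex helps to place the U2 snRNP at the branch point, and all 3 of its genes were steady. SF3A3 was at 31.7, 32.7 and 33.5 FPKM with the agomir, against 34.8, 31.8 and 32.2 FPKM with agomir NC. SF3A1 was at 29.6, 30.4 and 32.2 FPKM against 30.5, 32.9 and 30.3 FPKM. SF3A2 was at 19.0, 17.9 and 18.5 FPKM against 16.2, 18.5 and 18.5 FPKM. In each the groups overlapped, and the log2 fold changes were -0.014, -0.024 and 0.060, with standard errors of 0.052, 0.055 and 0.065. Their 95% intervals reached from -0.15, the lower bound of SF3A1, to 0.21, the upper bound of SF3A2.

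SF3B1, the large scaffold of the SF3B complex that closes on the branch point adenosine, was the most abundant SF3B gene in all 6 libraries. It was at 81.3, 85.8 and 83.0 FPKM with the agomir, against 82.1, 81.9 and 79.0 FPKM with agomir NC, a log2 fold change of 0.041 (95% interval -0.052 to 0.13). SF3B4, which contacts RNA upstream of the branch point, was the lowest in all 6, at 23.3, 23.2 and 24.7 FPKM against 24.5, 24.2 and 26.2 FPKM. The ratio of their mean levels was 3.38, although the complex holds a copy of each.

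SF3B2, which binds SF3B4 in the complex, was at 44.7, 44.3 and 44.1 FPKM with the agomir, against 43.3, 40.6 and 41.4 FPKM with agomir NC. All 3 agomir libraries lay above the agomir NC libraries, by means of 44.4 ± 0.283 against 41.8 ± 1.37 FPKM (SD, n = 3 each). On the log2 scale the change was 0.086 (standard error 0.044), which did not pass the unadjusted threshold, and its adjusted p was 0.520 in limma. SF3B2 passed that threshold when no filter was used and without agomir NC replicate 1. SF3B5, a small subunit, was at 36.0, 32.7 and 35.4 FPKM against 32.8, 30.4 and 33.6 FPKM, with overlapping groups and a log2 fold change of 0.10 (standard error 0.057), which was 0.15 and passed the unadjusted threshold without agomir replicate 2. SF3B3 and SF3B6 had log2 fold changes of 0.058 and -0.047, and SF3B6, which touches the branch point region, had the wider spread, from 29.1 to 38.1 FPKM. With 1 library left out, SF3B3 lay between 0.028 and 0.11, and SF3B6 between -0.13 and 0.040, so that its sign turned. None of the 3 SF3A and 6 SF3B genes passed the unadjusted threshold (against 10.9% of all genes tested in either direction), and the median log2 fold change of the SF3B genes was 0.049.

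Among the SR proteins, SRSF11 was higher (1 of 11, 9.09%, against 6.63% of all genes tested) and SRSF9 lower (1 of 11, 9.09%, against 4.31%) at the unadjusted threshold. SRSF9, a short SR protein that regulates splice site choice, was at 37.8, 34.7 and 36.1 FPKM with the agomir, against 40.4, 38.4 and 43.0 FPKM with agomir NC. The highest agomir value lay below the lowest agomir NC value, and the means were 36.2 ± 1.53 FPKM against 40.6 ± 2.27 FPKM (SD, n = 3 each). On the log2 scale the change was -0.16 (95% interval -0.29 to -0.038, standard error 0.056, limma adjusted p = 0.363). It kept to between -0.20 and -0.12 when each library was left out, but no longer passed the unadjusted threshold without agomir replicate 2 or agomir NC replicate 3.

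SRSF11 encodes an SR-like protein found with the snRNPs. It was at 50.3, 46.5 and 51.9 FPKM with the agomir, against 42.0, 45.3 and 46.4 FPKM with agomir NC. The groups did not overlap, but agomir replicate 2 and agomir NC replicate 3 differed by little. The log2 fold change was 0.15 (95% interval 0.023 to 0.28, standard error 0.057, limma adjusted p = 0.398), from means of 49.6 ± 2.77 and 44.6 ± 2.29 FPKM (SD, n = 3 each). Without agomir replicate 1, agomir replicate 3 or agomir NC replicate 1 it did not pass the unadjusted threshold, nor without the variance trend, and its lowest log2 fold change with 1 library left out was 0.11. Neither SRSF9, SRSF11 nor SNRPD3 overlapped another gene in the ARS-UCD2.0 table of RefSeq, although 18 of the 65 members did. The 18 include SNRPN, SNRPA, HNRNPA1 and HNRNPA0, each with a protein-coding gene, and PRPF8, with a pseudogene.

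SRSF3, the smallest classical SR protein and a factor in mRNA export, was the most abundant SRSF gene. It was at 117, 117 and 114 FPKM with the agomir, against 122, 117 and 113 FPKM with agomir NC, so that the agomir values lay within the range of the agomir NC values, with a 95% interval of -0.11 to 0.076 for the log2 fold change. SRSF6, a longer SR protein, was at 65.7, 67.3 and 65.8 FPKM against 67.4, 70.2 and 71.5 FPKM. SRSF1, the archetype of the family and chosen here after its values were seen, was at 44.0, 45.0 and 44.1 FPKM against 46.9, 45.5 and 47.1 FPKM. Both lay lower in every agomir library, but their log2 fold changes of -0.072 and -0.068 (standard error 0.042 each) did not pass the unadjusted threshold.

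Of the 11 SRSF genes, 8 had a negative and 3 a positive log2 fold change, against 5582 and 6840 of the 12422 genes tested. The SRSF median was -0.022. With 1 library left out the median lay between -0.066, without agomir NC replicate 2, and -0.0097, without agomir NC replicate 1. The groups did not overlap in 3 genes that were lower (27.3%, against 6.36% of all genes tested) and in 1 that was higher (9.09%, against 10.9%), and no test of the family as a set was made. SRSF12 was the only SRSF gene at a low level, from 1.43 to 2.21 FPKM, and its 95% interval, from -0.46 to 0.17, was the widest of the family. The sums of the 11 genes were 508, 507 and 510 FPKM with the agomir, against 518, 507 and 523 FPKM with agomir NC, where agomir NC replicate 2 lay just below all of the agomir libraries.

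**Figure D2:**
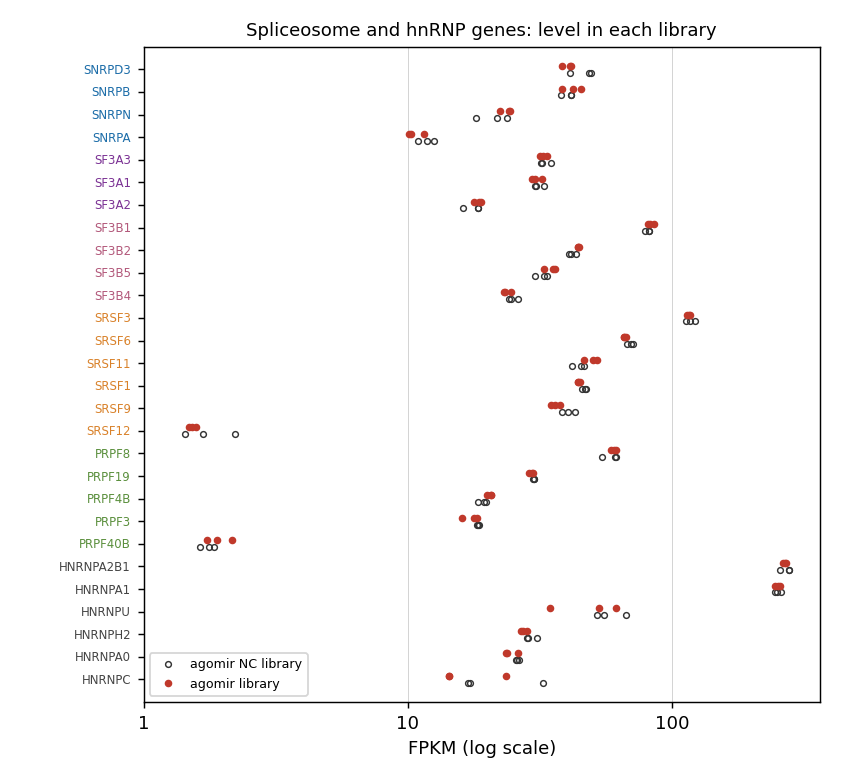
FPKM on a log axis in each library, for the genes named by rule with HNRNPC, SRSF1 and SRSF12, with filled points for the 3 agomir and open points for the 3 agomir NC libraries. HNRNPA2B1 and HNRNPA1 are the highest, SRSF12 and PRPF40B the lowest, and the points of both groups lie close together except in HNRNPC and HNRNPU.

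PRPF8, the largest protein of the U5 snRNP and the scaffold of the catalytic center, was the most abundant PRPF gene. It was at 58.7, 61.6 and 60.3 FPKM with the agomir, against 61.0, 61.6 and 54.6 FPKM with agomir NC, and its log2 fold change of 0.029 had a 95% interval of -0.092 to 0.15. PRPF19, a ubiquitin ligase and the core of a complex that joins the spliceosome at activation, was at 29.8, 29.6 and 28.7 FPKM against 30.0, 30.0 and 29.7 FPKM. With an SD within groups of 0.020 on the log2 scale, PRPF19 was among the least variable genes, at percentile 0.692 of all genes tested.

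PRPF4B, a kinase of the tri-snRNP, was at 20.6, 20.6 and 20.0 FPKM with the agomir, against 19.5, 18.5 and 19.8 FPKM with agomir NC. PRPF3, a protein of the U4/U6 snRNP, was at 16.0, 17.8 and 18.2 FPKM against 18.3, 18.6 and 18.4 FPKM. In both the groups did not overlap, with PRPF4B on the higher and PRPF3 on the lower side of the agomir NC. Of the 13 PRPF genes, these were 1 higher (7.69%, against 10.9% of all genes tested) and 1 lower (7.69%, against 6.36%). The log2 fold changes of PRPF4B and PRPF3, 0.081 (standard error 0.053) and -0.088 (standard error 0.061), did not pass the unadjusted threshold. The value of PRPF3 was -0.034 without agomir replicate 1, its lowest library, and that of PRPF4B was 0.052 without agomir NC replicate 2. PRPF40B, a pre-mRNA processing factor, was low in all libraries, at 1.73, 1.90 and 2.17 FPKM against 1.77, 1.64 and 1.84 FPKM. None of the 13 PRPF genes passed the unadjusted threshold (against 10.9% of all genes tested in either direction). Of them, 6 had a positive and 7 a negative log2 fold change, against 6840 and 5582 of the 12422 genes tested. The PRPF median was -0.0037.

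The HNRNP genes were the most abundant family. Their 20 members summed to 1830, 1815 and 1830 FPKM with the agomir, against 1866, 1797 and 1870 FPKM with agomir NC. The agomir sums lay inside the range of the agomir NC sums. HNRNPA2B1, a packaging protein of nascent RNA that also sorts RNAs, was at 269, 264 and 271 FPKM with the agomir, against 279, 257 and 277 FPKM with agomir NC. HNRNPA1, a splicing repressor that opposes SR proteins at many exons, was at 246, 257 and 253 FPKM against 250.1, 245 and 258 FPKM. Both stood above percentile 98 of all genes tested by level, and their 95% intervals, from -0.11 to 0.080 for HNRNPA2B1 and from -0.083 to 0.092 for HNRNPA1, included 0. The sign of both log2 fold changes, -0.016 and 0.0046, turned under another scaling, quantile normalization for HNRNPA2B1 and median-ratio scaling for HNRNPA1.

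Next in level were HNRNPK at 221, HNRNPH1 at 154, HNRNPF at 143 and HNRNPM at 116 FPKM, as means of the agomir libraries, with 222, 152, 142 and 113 FPKM as the means of the agomir NC libraries. In each of these genes the groups overlapped. HNRNPA0, a single-exon relative of HNRNPA1, was at 23.7, 23.8 and 26.1 FPKM with the agomir, against 25.8, 26.3 and 26.0 FPKM with agomir NC. HNRNPH2, a close paralog of HNRNPH1, was at 28.4, 26.8 and 27.4 FPKM against 28.5, 28.3 and 30.9 FPKM. For HNRNPA0 and HNRNPH2 most agomir values lay below the agomir NC values with 1 crossing over, and the log2 fold changes of -0.087 and -0.084 (standard errors 0.054 and 0.053) did not pass the unadjusted threshold. The value of HNRNPH2 was -0.044 without agomir NC replicate 3. HNRNPA0 passed the unadjusted threshold without agomir replicate 3, at -0.13, and HNRNPAB, a related RNA-binding protein, without agomir NC replicate 2. None of the 20 HNRNP genes passed it with all libraries (against 10.9% of all genes tested in either direction). Their log2 fold changes were positive in 8 and negative in 12, against 6840 and 5582 of the 12422 genes tested. The HNRNP median was -0.0067.

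HNRNPU and HNRNPC stood apart from the other members by the spread between libraries of one group. HNRNPU, a nuclear scaffold protein that binds chromatin and RNA, was at 53.2, 34.5 and 61.5 FPKM with the agomir, against 67.0, 51.9 and 55.5 FPKM with agomir NC. HNRNPC, which binds uridine tracts and was chosen here after its values were seen, was at 14.4, 23.6 and 14.3 FPKM against 32.5, 16.9 and 17.1 FPKM. The low value of HNRNPU came from agomir replicate 2 and the high value of HNRNPC from agomir NC replicate 1, while the groups overlapped in both. Their SDs within groups, 0.33 and 0.47 on the log2 scale, were at percentiles 97.1 and 99.1 of all genes tested, against 0.071 for the median member.

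The largest log2 fold changes in size among the 65 members were those of HNRNPC and HNRNPU, at -0.31 (standard error 0.25) and -0.26 (standard error 0.18), and neither passed the unadjusted threshold. For HNRNPC the value was -0.0100 without agomir NC replicate 1 and -0.55 without agomir replicate 2. For HNRNPU it was -0.015 without agomir replicate 2 and -0.43 without agomir replicate 3, where it passed the unadjusted threshold. The ratio of the highest to the lowest library was 2.28 for HNRNPC and 1.94 for HNRNPU, and at most 1.55, for SRSF12, in the other 63 genes.

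**Figure D3:**
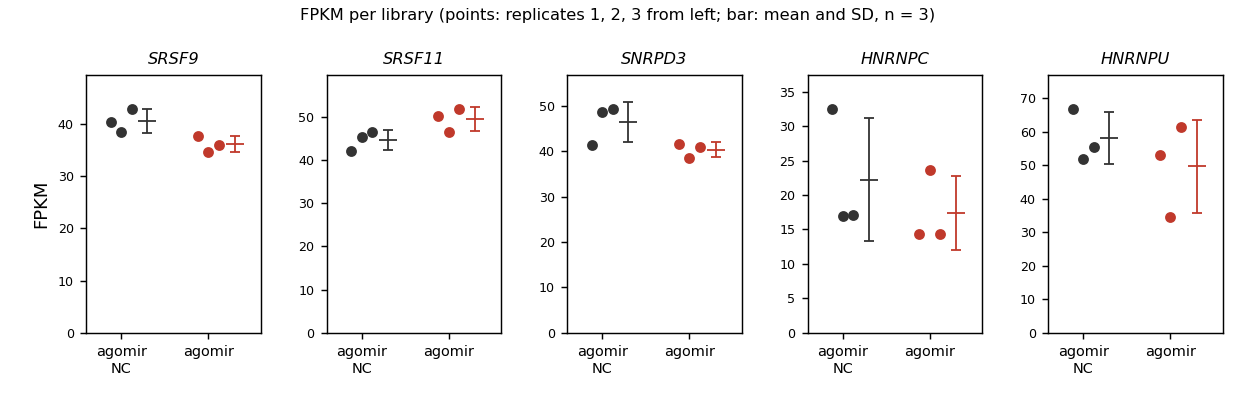
FPKM in each library for the 3 genes past the unadjusted threshold and for the 2 with the largest spread within groups, with the mean and SD of 3 libraries beside the points. SRSF9 and SRSF11 do not overlap between groups, SNRPD3 overlaps by agomir NC replicate 1, and HNRNPC and HNRNPU are spread by single libraries.

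Across libraries, the members together took 0.877%, 0.869% and 0.878% of the summed FPKM with the agomir, against 0.884%, 0.864% and 0.867% with agomir NC. As a share, agomir NC replicate 1 was thus the highest, and agomir NC replicates 2 and 3 lay below all agomir libraries. Their sums were 3229, 3192 and 3223 FPKM with the agomir, against 3265, 3161 and 3287 FPKM with agomir NC. The agomir libraries thus lay between the lowest and the highest agomir NC library, and the SD was 19.7 FPKM in the agomir group, against 67.4 FPKM in the other (n = 3 each). Of the 65 genes, 22 had their highest FPKM in agomir NC replicate 3 and 22 their lowest in agomir NC replicate 2. Among the SNRP genes, 7 of 12 were lowest in agomir NC replicate 2, where their median was 0.12 below the mean of each gene on the log2 scale. The FPKM of all genes summed to 379361 in agomir NC replicate 3 and to 365977 in agomir NC replicate 2, the highest and the lowest of the 6 libraries. With median-ratio scaling the median log2 fold change of the members was -0.029, against -0.00071 over all genes tested. In that fit 1 member was higher and 2 were lower at the unadjusted threshold. The part of the library totals in the members' values was not tested.

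Splicing genes outside the prefix rule were taken from 5 lists, of which 120 genes were tested. None was under an adjusted p of 0.05, and at the unadjusted threshold 8 were higher (6.67%, against 6.63% of all genes tested) and 4 lower (3.33%, against 4.31%). Their median log2 fold change was 0.015, against 0.013 over all genes tested. Without agomir replicate 2, 3 were higher, in a fit where 8.09% of all genes tested passed the unadjusted threshold in either direction, against 10.9% with all libraries. The groups did not overlap in 12 that were higher (10.0%, against 10.9%) and in 10 that were lower (8.33%, against 6.36%), and the differences from the shares over all genes were not tested.

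In the list of other snRNP proteins and snRNP assembly factors, 4 of 32 genes were higher (12.5%, against 6.63% of all genes tested) and 2 lower (6.25%, against 4.31%). DDX23, the helicase of the U5 snRNP that acts in spliceosome activation, was at 25.2, 26.0 and 24.2 FPKM with the agomir, against 23.4, 21.7 and 22.3 FPKM with agomir NC. SART3, a factor that rejoins U4 and U6 snRNPs, was at 13.7, 14.1 and 13.3 FPKM against 12.4, 10.9 and 12.0 FPKM. Both had higher values in all 3 agomir libraries, with log2 fold changes of 0.16 and 0.21 (adjusted p = 0.354 and 0.333 in limma). GEMIN2, of the SMN complex that loads Sm rings, and LSM2, of the ring on U6 snRNA, were also higher, with log2 fold changes of 0.20 and 0.23. LSM5, of the same ring as LSM2, was lower, at 4.54, 4.02 and 4.19 FPKM against 4.68, 5.45 and 6.24 FPKM, a log2 fold change of -0.32. TXNL4A, a small U5 snRNP protein, was lower as well, at 14.8, 14.2 and 15.7 FPKM against 18.6, 16.4 and 16.2 FPKM. In all 6 genes, named for passing the unadjusted threshold, the groups did not overlap. In the whole list it held for 4 higher genes (12.5%, against 10.9% of all genes tested) and 4 lower ones (12.5%, against 6.36%).

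Among SR-related proteins and SR protein kinases, 2 of 22 genes were higher (9.09%, against 6.63% of all genes tested) and 1 lower (4.55%, against 4.31%) at the unadjusted threshold. SON, a large protein of nuclear speckles, was at 56.6, 59.0 and 55.7 FPKM with the agomir, against 54.8, 51.8 and 48.7 FPKM with agomir NC. PNN, a speckle protein of the exon junction complex periphery, was at 17.1, 22.3 and 20.1 FPKM against 17.4, 15.1 and 14.9 FPKM, where agomir replicate 1 lay below agomir NC replicate 1. CLK2, a kinase that phosphorylates SR proteins, was at 14.7, 15.2 and 15.1 FPKM against 17.5, 16.2 and 16.4 FPKM. The log2 fold changes of these genes were 0.14, 0.32 and -0.15, and the lowest adjusted p among them was 0.324 in limma, for PNN.

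In the list of genes of the catalytic steps and the PRPF19 complex, 1 of 26 was higher (3.85%, against 6.63% of all genes tested) and 1 lower (3.85%, against 4.31%). SNW1, a core protein of the active spliceosome, was at 35.9, 38.6 and 37.6 FPKM with the agomir, against 32.2, 32.4 and 35.6 FPKM with agomir NC. RNF113A, a zinc finger protein of the activated spliceosome, was at 5.57, 5.31 and 5.40 FPKM against 6.87, 6.11 and 7.53 FPKM, a log2 fold change of -0.30 and, at an adjusted p of 0.310 in limma, the lowest among the other splicing genes. Of the other RNA-binding splicing regulators, PTBP3 was higher among 27 tested (3.70%, against 6.63% of all genes tested), at 17.9, 18.5 and 17.0 FPKM against 16.1, 14.7 and 15.9 FPKM. None of the 13 factors of the branch point and 3' splice site passed the unadjusted threshold, against 10.9% of all genes tested in either direction.

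Markers of other cell types were low in both groups. The endothelial markers summed to between 3.77 and 4.54 FPKM, with VWF the highest and PECAM1 at most 0.147 FPKM. The leukocyte markers summed to between 6.73 and 7.81 FPKM, with CD14 the highest and PTPRC at most 0.119 FPKM. Muscle, epithelial and erythroid markers summed to at most 0.545, 0.379 and 0.0570 FPKM, and MYOD1, KRT18 and HBB were listed at 0 in all 6 libraries. Among the fibroblast and preadipocyte markers, 1 of 11 was lower at the unadjusted threshold (9.09%, against 4.31% of all genes tested), the matrix proteoglycan gene DCN, with a log2 fold change of -0.12. Of the 5 mature adipocyte markers tested, FABP4 was lower (1 of 5, against 4.31% of all genes tested) and PPARG higher (1 of 5, against 6.63%) at the unadjusted threshold, with log2 fold changes of -0.49 and 0.23. The groups overlapped in FABP4 and did not in PPARG. Their part in the values of the splicing genes was not tested.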

How the data were processed

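RNA of 6 libraries, 3 with the bta-miR-484 agomir and 3 with the agomir NC, was taken as the deposited FPKM values per gene. The labels name fastp, HISAT2, StringTie and the build ARS-UCD1.2, without versions or roles, and do not state the strandedness or how shared reads were divided. FPKM holds no read numbers, and the ratios of 3191 low genes fell into no steps (12 or fewer per bin of 0.002 log2 units), so the depth is unknown and no counting error is given.

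Genes averaging 0.5 FPKM or more were compared as log2(FPKM + 0.5) with limma (version 3.58.1, R 4.3.3), using a variance trend and no block. P-values were adjusted over all 12422 genes tested. In each family, genes named are the 2 highest in level and the 3 with the lowest p, 25 in all, while HNRNPC, SRSF1 and other genes given by value were added. The members and lists were chosen with earlier results of these data known. Since the origin of the replicates is not stated, p-values measure only the spread between these samples. Alternatives covered the pseudocount, filter, scaling, trend, array weights, replicate block and leaving out each library. All 65 members matched the RefSeq table of ARS-UCD2.0, used for names and overlaps only. Protein, promoter and miRNA sequences were not used here. Some results for single members are not reported.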

Additional observations from a re-analysis of the deposited data

How the results depend on the processing

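No member and no other splicing gene was under an adjusted p of 0.05 in any of the 15 alternatives, while the number of all genes under it was between 0 and 2. At the unadjusted threshold, 1 member was higher and 2 were lower. The number higher was 2 when no filter was used, 2 with the replicate block and 0 when the variance trend was dropped, and between 0 and 3 when 1 library was left out. The number lower was 1 without the variance trend, where only SRSF9 passed, and between 0, without agomir NC replicate 3, and 4, without agomir replicate 3. Of the other splicing genes, 8 were higher, and between 3 and 11 when 1 library was left out. Fewer libraries enter those fits, and the cause of the changed counts was not tested. The median log2 fold change of the members was between -0.031 and 0.0020 over the alternatives. With 1 library left out, the family medians ranged from -0.063 to 0.041 (SNRP), -0.034 to 0.015 (SF3A), 0.030 to 0.081 (SF3B), -0.066 to -0.0097 (SRSF), -0.015 to 0.013 (PRPF) and -0.039 to 0.0015 (HNRNP).

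The signs were counted for the 25 genes named by rule and HNRNPC. Among their 390 single-gene values from the alternatives, 376 had the sign of the main fit and 14, in 8 genes, the opposite sign, all close to 0. These were HNRNPA2B1 with quantile normalization (0.022), HNRNPA1 with median-ratio scaling (-0.011), and values with 1 library left out. With 1 library left out, SNRPB ranged from -0.0039 to 0.11, SF3A3 from -0.037 to 0.026, SF3A1 from -0.058 to 0.015, SF3A2 from -0.0015 to 0.092, SRSF3 from -0.047 to 0.010, PRPF8 from -0.026 to 0.061, HNRNPA2B1 from -0.053 to 0.0050 and HNRNPA1 from -0.012 to 0.025.

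For libraries of equal replicate number, the departures from the group mean had correlations of -0.0506, 0.0532 and 0.0387. These values show little shared departure by replicate number. They cannot say if libraries of equal number came from the same calf or culture. Because the depth is not known, little can be said of SRSF12 and PRPF40B, the members at the lowest FPKM. The planned sequence features of the members were not computed.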
